A study of Homo sapiens with 4 samples.

Results

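The merged ATAC-seq regions at 10 genes that are active in the pancreas and lie at risk loci for type 2 diabetes were examined in human pancreatic progenitors with and without the BET inhibitor I-BET151. The genes were TCF7L2, CDKAL1, SLC30A8, KCNJ11, IGF2BP2, HHEX, JAZF1, WFS1, GLIS3 and PROX1. Merging the peaks of the 4 deposited lists wherever they shared 1 bp or more gave 164301 regions, and the 233 regions that overlapped the body of 1 of these genes (GENCODE release 44, hg38) or the 20 kb on either side of it were taken. The cells were pancreatic progenitors made from an established human embryonic stem cell line, which the labels of all 4 libraries give as MEL1. The study's methods list it among their lines as MEL1 INS GFP/W, with GFP at the insulin gene. All were kept in EF6, a DMEM medium with B27, EGF, bFGF and a TGFβ inhibitor. In the DMSO group only the solvent was added, and in the I-BET151 group (EF6I medium) the inhibitor was present at 1 μM for 7 days. Each group had 2 libraries of 50000 cells each. The sources used here do not say whether the 2 libraries of a group came from separate cultures, so every p-value measures the spread between these libraries, which may be technical.

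ATAC-seq marks open chromatin: the Tn5 transposase inserts sequencing adapters where DNA is not wrapped tightly, so reads pile up at active promoters and enhancers. Most common variants that raise the risk of type 2 diabetes lie outside coding sequence, many of them in introns, and open regions in islets and their progenitors are where they are usually looked for. BET proteins read acetylated histones at such elements, and I-BET151 blocks that reading. The 10 genes take part in several steps of β cell formation and work. TCF7L2 is a transcription factor of the Wnt pathway, HHEX and PROX1 are homeodomain factors of the foregut endoderm, and GLIS3 and JAZF1 are zinc finger proteins. KCNJ11 encodes the pore of the potassium channel that couples glucose to insulin release, SLC30A8 the zinc transporter of insulin granules, and WFS1 a membrane protein of the endoplasmic reticulum. CDKAL1 modifies a transfer RNA, and IGF2BP2 binds messenger RNAs.

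The windows below are the regions on which the results turn, given so that their letters can be read beside their values. Each is 200 bases of hg38, plus strand, centred on the summit of the region. The first 3 rose in rank with I-BET151, the next 3 fell in rank, and JAZF1 intron 1, IGF2BP2 intron 10, KCNJ11 and PROX1 intron 4 (second window) were called in both I-BET151 libraries and in no DMSO library. The last, beyond the 3′ end of PROX1, was strong in all 4 libraries. Capitals mark exact matches, on either strand, to 1 of these cores: TGTTTAC for FOX factors, AGATAA for the GATA family, ATCGAT for ONECUT factors, AACAAT for SOX factors, TGANTCA for the AP-1 dimer, or the CTCF consensus.
WFS1 promoter, chr4:6269635-6269834: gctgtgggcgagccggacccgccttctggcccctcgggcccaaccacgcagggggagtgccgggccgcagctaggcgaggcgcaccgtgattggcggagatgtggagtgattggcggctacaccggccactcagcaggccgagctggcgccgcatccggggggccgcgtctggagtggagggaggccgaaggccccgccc
TCF7L2 downstream, chr10:113187379-113187578: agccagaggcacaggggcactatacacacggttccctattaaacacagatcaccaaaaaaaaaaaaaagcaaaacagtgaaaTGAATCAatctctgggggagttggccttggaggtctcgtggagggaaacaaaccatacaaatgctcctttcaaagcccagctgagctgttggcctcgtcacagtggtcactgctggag
PROX1 intron 4, chr1:214014853-214015052: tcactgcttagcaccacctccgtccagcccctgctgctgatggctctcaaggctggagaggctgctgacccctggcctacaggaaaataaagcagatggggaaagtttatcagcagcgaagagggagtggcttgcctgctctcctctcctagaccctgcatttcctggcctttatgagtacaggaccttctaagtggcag
GLIS3 intron 4, chr9:4027057-4027256: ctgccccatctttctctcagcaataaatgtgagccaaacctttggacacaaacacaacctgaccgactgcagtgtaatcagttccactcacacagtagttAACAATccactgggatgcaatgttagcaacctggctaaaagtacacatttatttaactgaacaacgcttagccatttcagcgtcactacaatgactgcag
GLIS3 intron 2, chr9:4137775-4137974: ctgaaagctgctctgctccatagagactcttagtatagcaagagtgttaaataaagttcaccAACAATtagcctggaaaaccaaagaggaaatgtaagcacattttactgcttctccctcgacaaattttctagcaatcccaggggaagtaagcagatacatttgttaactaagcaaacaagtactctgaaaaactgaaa
GLIS3 intron 1, chr9:4297877-4298076: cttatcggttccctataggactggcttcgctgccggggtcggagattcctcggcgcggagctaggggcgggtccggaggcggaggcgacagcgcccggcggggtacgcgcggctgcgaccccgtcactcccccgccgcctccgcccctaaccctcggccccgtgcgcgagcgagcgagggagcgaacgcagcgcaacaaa
JAZF1 intron 1, chr7:28037425-28037624: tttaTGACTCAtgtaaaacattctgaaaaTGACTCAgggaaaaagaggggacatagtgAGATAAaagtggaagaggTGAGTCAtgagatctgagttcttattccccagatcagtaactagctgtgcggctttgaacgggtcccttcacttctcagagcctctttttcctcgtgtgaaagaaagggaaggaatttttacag
IGF2BP2 intron 10, chr3:185660522-185660721: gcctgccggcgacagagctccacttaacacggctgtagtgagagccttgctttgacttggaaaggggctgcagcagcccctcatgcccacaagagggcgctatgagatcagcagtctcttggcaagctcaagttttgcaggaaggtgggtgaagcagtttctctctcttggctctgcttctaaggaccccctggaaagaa
KCNJ11 gained region, chr11:17384015-17384214: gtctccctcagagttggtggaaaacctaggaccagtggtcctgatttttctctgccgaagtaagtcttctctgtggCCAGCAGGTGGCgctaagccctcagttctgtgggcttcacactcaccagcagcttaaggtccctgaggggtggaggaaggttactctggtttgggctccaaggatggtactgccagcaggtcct
PROX1 intron 4, second window, chr1:214027652-214027851: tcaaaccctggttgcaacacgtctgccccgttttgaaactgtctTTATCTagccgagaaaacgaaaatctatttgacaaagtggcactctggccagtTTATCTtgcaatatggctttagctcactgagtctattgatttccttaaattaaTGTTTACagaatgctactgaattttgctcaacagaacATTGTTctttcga
PROX1 downstream, chr1:214050643-214050842: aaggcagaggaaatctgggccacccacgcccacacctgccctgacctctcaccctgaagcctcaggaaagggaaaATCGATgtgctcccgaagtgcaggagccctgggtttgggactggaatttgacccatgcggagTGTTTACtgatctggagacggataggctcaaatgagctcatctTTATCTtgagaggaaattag

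The JAZF1 window held 3 AP-1 matches and 1 GATA match, and the gained PROX1 window held 2 GATA matches, 1 FOX match and 1 SOX match. A match of these letters is a description and not a bound site. Over the central 200 bases of all 164301 regions, AP-1 was present in 11.0%, GATA in 14.2%, SOX in 10.2%, FOX in 4.55%, CTCF in 1.86% and ONECUT in 0.610%. Over the 233 regions at the diabetes genes the same cores were found as follows: AP-1 in 28 windows (12%), GATA in 42 (18.0%), SOX in 30 (12.9%), FOX in 14 (6.01%), CTCF in 2 (0.858%) and ONECUT in 2 (0.858%). Both CTCF matches lay in regions called only with I-BET151, at KCNJ11 and in another region of JAZF1 intron 1, and 4.13% of all such regions in the genome held one. Of 4 further cores searched, HNF1 (GTTAAT) was in 10.3% of the member windows against 8.19% of all, TEAD (GGAATG) in 13.3% against 14.9%, TCF/LEF (CTTTGAT) in 3.43% against 2.93% and the homeodomain core (TAATTA) in 3.00% against 4.70%. The HNF1 and homeodomain cores share the letters TAAT, so their matches can overlap.

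The 4 lists were unequal, and this touches every count. The DMSO lists held 82568 and 38295 peaks and the I-BET151 lists 84995 and 111324, so DMSO replicate 2 stood apart with the fewest. The background of the lists corresponded to 38.7 and 36.6 M reads with DMSO and 12.5 and 16.0 M reads with I-BET151, so the longest list did not come from the deepest library. Peaks were at least 200 bp long in the 2 replicate 1 lists but 233 and 256 bp in those of replicate 2, although the methods state 1 extension of 200 bp for all. Why they differ was not tested. Of 10 promoters of pancreatic progenitor genes, 8, 7, 9 and 9 were called in the 4 libraries. The promoter of PDX1, a defining factor of these cells, was called in both I-BET151 libraries and in neither DMSO library, that of ONECUT1 in all but DMSO replicate 2, and that of PTF1A in none, and the remaining 7 were called in all 4. The promoters of POU5F1 and NANOG, which define pluripotent cells, of INS and GCG, and of ALB and AFP were called in none. Promoters of mesenchyme genes were called at 3, 3, 4 and 4 of 5 markers, endocrine ones at 3, 1, 4 and 4 of 10, liver at 3, 2, 2 and 2 of 5, pluripotent at 2, 2, 2 and 3 of 5, and acinar at 2, 1, 2 and 1 of 5. The part of other cells in the results was not tested, and in bulk ATAC-seq a region open in more cells and a region more open per cell cannot be told apart.

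More of the regions at the diabetes genes were called with I-BET151. Of the 233 regions, 107 were called in DMSO replicate 1, 49 in DMSO replicate 2, 128 in I-BET151 replicate 1 and 174 in I-BET151 replicate 2. Every I-BET151 list thus held more of them than either DMSO list. The mean was 78.0 ± 41.0 regions with DMSO and 151 ± 32.5 with I-BET151 (SD, n = 2), a ratio of 1.94. By a two-sided exact permutation test p was 0.333, and no smaller value can come from 2 libraries against 2. The same 4 lists held 47.9%, 22.9%, 49.2% and 67.7% of all merged regions, against 45.9%, 21.0%, 54.9% and 74.7% of the regions at the diabetes genes, so the order of the lists was that of the whole genome.

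A region was taken as gained when both I-BET151 lists and no DMSO list held it, and as lost in the reverse case. At the diabetes genes 48 regions were gained (20.6%), where 17.0% of all merged regions were gained. A single region was lost (0.429%, where 2.37% of all regions were), and 40 regions were called in all 4 lists (17.2%, background 15.6%). The other 144 were called in some other combination, led by 55 in I-BET151 replicate 2 alone (23.6%, against 22.3% of all regions) and 36 in DMSO replicate 1 alone (15.5%, against 18.1%). GLIS3 held the most gained regions with 15 of its 71, followed by TCF7L2 with 8 of 32 and SLC30A8 with 6 of 15. CDKAL1, JAZF1 and PROX1 held 4 each, KCNJ11 held 3, IGF2BP2 held 2, and HHEX and WFS1 held 1 each. The stacked bars of regions by gene show that every gene had at least 1 gained region, and that only TCF7L2 had a lost one. WFS1 had none gained at a −log10 p of at least 5, the threshold stated in the methods, or with the gene body only. At a −log10 p of at least 10 neither WFS1 nor KCNJ11 had a gained region.

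**Figure D1:**
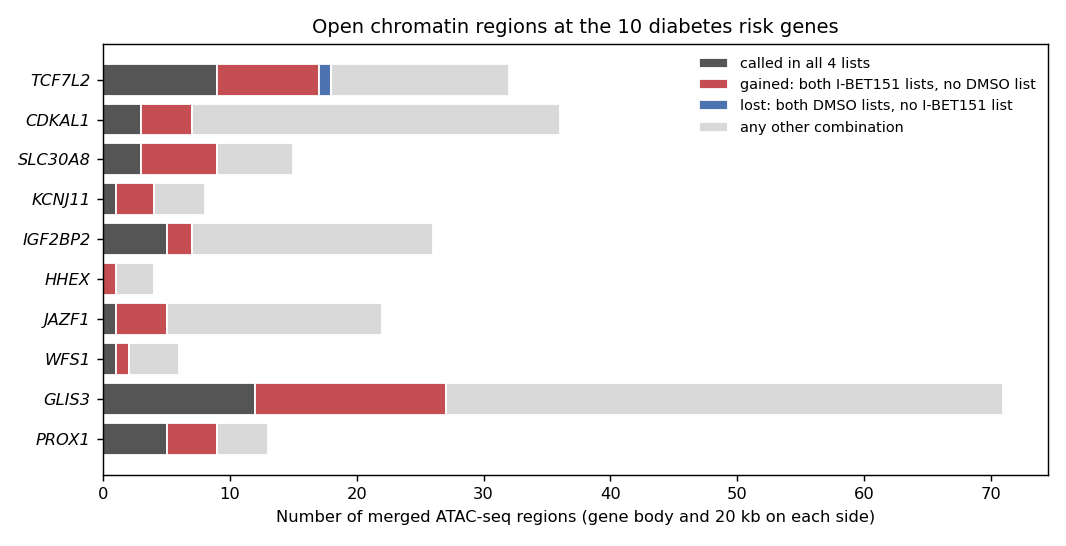
Number of merged ATAC-seq regions at each of the 10 genes (x axis, gene body and 20 kb on each side), split by the lists that called them: all 4 lists, both I-BET151 lists only (gained), both DMSO lists only (lost), or any other combination. GLIS3 holds 71 of the 233 regions and 15 of the 48 gained ones, and the single lost region is at TCF7L2.

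The counts changed when the lists were made equally long. With the 38295 strongest peaks of each list, 92 regions were left at the diabetes genes, 6 of them gained (6.52%, against 9.19% of all regions) and 5 lost (5.43%, against 5.85%). The 6 were also gained with all peaks and lay at SLC30A8, IGF2BP2, HHEX and JAZF1 (1 each) and at GLIS3 (2), while the 5 lost ones, at TCF7L2, KCNJ11, IGF2BP2, GLIS3 and PROX1, were with all peaks called in all 4 lists (4 regions) or in another combination (1 region). Single libraries also moved the counts: without I-BET151 replicate 1 there were 103 gained regions (44.2%, against 39.3% of all regions), and without DMSO replicate 2 there were 37 lost ones (15.9%, against 20.4% of all). Leaving out DMSO replicate 1 or I-BET151 replicate 2 gave 4 lost regions each (1.72%, against 3.71% and 4.46% of all). At the stricter threshold of −log10 p of at least 10, 30 of 113 regions were gained (26.5%, against 23.3% of all) and 0 were lost.

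Most of the open chromatin at these genes was intronic, as choosing regions by gene body makes likely: 179 of the 233 regions (76.8%) lay in introns. Of these, 76 and 32 were called with DMSO and 99 and 139 with I-BET151. Of the 179 intronic regions, 39 were gained, or 21.8% (16.4 to 28.4% as a 95% Wilson interval, for counting error alone), and 17.7% of all intronic regions in the genome were gained. The interval takes the 179 regions as independent, but GLIS3 alone held 14 of the 39 gained ones. All of them also came from the same lists. The interval therefore cannot decide whether the share differs from that background, and the difference was not tested. Of the 48 gained regions 39 (81.3%) were intronic, and the summits of the gained regions lay a median of 99.8 kb from the transcription start site, against 118 kb for all 233. The fold enrichment of a gained region, taken as the lower of its 2 I-BET151 values, ran from 2.98 to 8.67 with a median of 4.84 (5.12 over all gained regions), and its summit held 7 to 40 reads.

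The promoters fell into 3 kinds. A region within 1 kb of the start of the canonical transcript was present at 9 of the 10 genes, and 3 of these 9, at HHEX, KCNJ11 and JAZF1, were called only with I-BET151. SLC30A8, which is read in mature β cells, had no region at its canonical start in any library. The other 6 promoters, of TCF7L2, CDKAL1, IGF2BP2, WFS1, GLIS3 and PROX1, were open in all 4 libraries. Counting every promoter region at these loci, those of neighbouring genes included, 3 of 15 (20%) were gained, where 11.1% of all promoter regions were gained, and 10, 9, 12 and 13 of the 15 were called in the 4 libraries.

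At HHEX, which is needed to form the ventral pancreas, the promoter region (chr10:92689141-92690163, summit 74 bp before the start) was absent from both DMSO lists. It had a fold enrichment of 6.83 and 6.82 over the local background with I-BET151, from 24 and 37 reads. It was 1 of the 6 regions that remained gained with equal numbers of peaks. At KCNJ11 the promoter region (chr11:17388903-17389913) had fold enrichments of 4.38 and 5.96 with I-BET151, from 16 and 36 reads, and with equal numbers of peaks it was called in I-BET151 replicate 2 only. The JAZF1 promoter region (chr7:28180419-28181091) had fold enrichments of 6.47 and 4.85, from 17 reads in each library, and with equal numbers of peaks it was called in I-BET151 replicate 1 only. A neighbouring JAZF1 region, with its summit 0.968 kb after the start, was called in DMSO replicate 1 and in both I-BET151 libraries, so the JAZF1 start was not closed in every DMSO library.

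**Figure D2:**
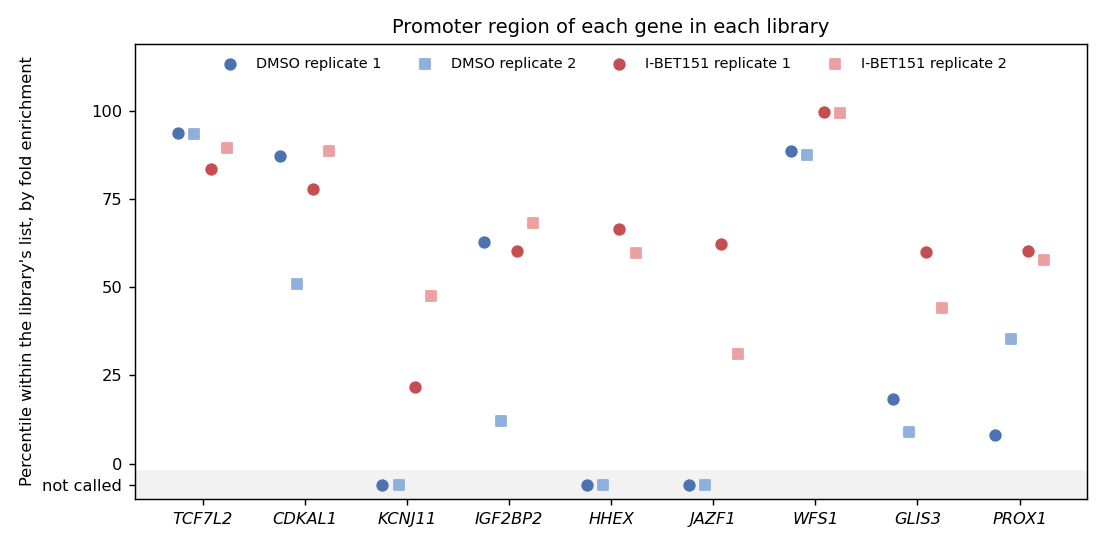
Percentile of the promoter region of 9 genes within each library's list, ranked by fold enrichment (y axis, 100 for the strongest region, grey band for a region that was not called), with 1 point per library. HHEX, KCNJ11 and JAZF1 have points above the grey band in the I-BET151 libraries only, and the 2 I-BET151 points of WFS1, at 99.8 and 99.4, lie above the DMSO points.

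For the regions called in all 4 lists, accessibility was compared by rank. Each list was ranked by fold enrichment, and a rank is given as a percentile of the list (100 for the strongest region), since fold enrichment itself differed between libraries (median over all shared regions 5.16 and 4.60 with DMSO, 8.33 and 10.0 with I-BET151). These percentiles were not level between the lists. Their median over all shared regions was 80.1 and 63.5 with DMSO and 79.2 and 84.3 with I-BET151. The percentiles of a single region have to be read against these medians. The test used limma on normal scores of the ranks over all 25627 shared regions, and a rank shift is the difference of these scores, I-BET151 minus DMSO. Of the 40 shared regions at the diabetes genes, 3 rose in rank (7.5%) and 3 fell (7.5%) at a Benjamini-Hochberg adjusted p under 0.05, against 3.41% and 1.96% of all shared regions. At an unadjusted p under 0.05 the counts were 4 up and 10 down. No share over all shared regions was taken at an unadjusted p, here or below, so those counts have no background. The percentile was higher in both I-BET151 lists than in both DMSO lists at 11 regions (27.5%, background 40.9%) and lower in both at 8 (20%, background 10.4%). The median rank shift was −0.22 at the diabetes genes and −0.03 over all shared regions.

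**Figure D3:**
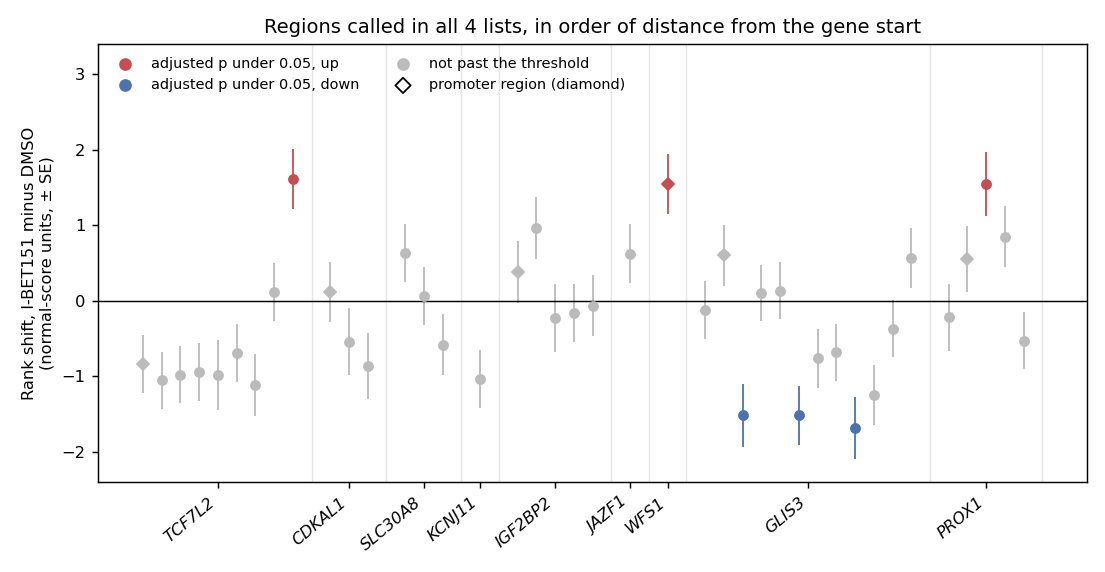
Rank shift of each of the 40 regions called in all 4 lists (y axis, I-BET151 minus DMSO in normal-score units, bars are ± 1 SE from limma with 2 libraries per group), grouped by gene and ordered by distance from the gene start. The 3 regions past the threshold upward lie at TCF7L2, WFS1 and PROX1, all 3 past it downward lie in GLIS3, and 7 of the 9 TCF7L2 regions lie below 0.

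The WFS1 promoter, shown above, was among the strongest regions of the I-BET151 lists. Wolframin, its product, guards β cells against stress of the endoplasmic reticulum, and its loss causes Wolfram syndrome with diabetes. The fold enrichment of the region (chr4:6269379-6270188, summit 115 bp before the start) was 6.01 and 6.53 with DMSO and 17.7 and 17.6 with I-BET151, from 56, 65, 88 and 175 reads. Its percentile went from 88.6 and 87.5 to 99.8 and 99.4, and the groups did not overlap. The rank shift was 1.55 (SE 0.40, limma adjusted p = 0.0373). Its motif window held none of the searched cores.

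The second region that rose lay beyond the 3′ end of TCF7L2 (chr10:113187165-113187819), 237 kb after the gene start. Its fold enrichment was 3.90 and 3.35 with DMSO and 11.9 and 10.8 with I-BET151, from 27, 23, 33 and 47 reads. The percentiles were 50.8, 23.4, 94.1 and 87.9, well apart between the groups, and the rank shift was 1.62 (SE 0.40, limma adjusted p = 0.0326). The third was in intron 4 of PROX1 (chr1:214014718-214015243), 27.0 kb after the start. Its fold enrichment was 4.56 and 3.69 with DMSO and 13.8 and 11.8 with I-BET151, from 24, 21, 50 and 58 reads. The rank shift was 1.55 (SE 0.42, limma adjusted p = 0.0443), with percentiles of 70.0, 37.1, 97.6 and 91.3.

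All 3 regions that fell in rank lay in introns of GLIS3, whose loss causes neonatal diabetes. In intron 4 (chr9:4026909-4027372, 273 kb after the start) the fold enrichment was 8.37 and 5.62 with DMSO and 5.56 and 8.60 with I-BET151, from 36, 24, 13 and 40 reads. The folds themselves overlapped, but against the higher folds of the other regions in the I-BET151 lists the percentile went from 97.3 and 79.5 to 48.5 and 75.5 (rank shift −1.68, SE 0.41, limma adjusted p = 0.0320). In intron 2 (chr9:4137085-4138274) the percentiles were 87.1, 64.3, 26.1 and 56.8, from 37, 28, 15 and 44 reads (rank shift −1.52, SE 0.39, limma adjusted p = 0.0367). In intron 1 (chr9:4297233-4298304), 2.09 kb after the start, they were 68.3, 69.6, 37.3 and 26.4, from 36, 41, 41 and 63 reads (rank shift −1.52, SE 0.42, limma adjusted p = 0.0460).

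None of these 6 calls held when a DMSO library was left out, although the shifts stayed between 1.25 and 1.67 for those that rose and between −1.21 and −2.02 for those that fell. Without DMSO replicate 1 or without DMSO replicate 2 limma called 0 member regions in either direction, with 4 up and 3 down, and 5 up and 8 down, at an unadjusted p under 0.05. Over all shared regions it called 0.427% up and 0.438% down in the first case and 0.907% and 0.520% in the second. Without I-BET151 replicate 1 most of these calls did not hold either. The 6 shifts were then 1.07 to 1.28 for those that rose and −1.21 to −1.68 for those that fell. Without I-BET151 replicate 2 the shifts were 1.82 to 2.03 and −1.11 to −1.94, and the GLIS3 intron 1 call did not hold. With ranks by −log10 p limma called 0 up and 0 down, against 0.0312% and 0.105% of all shared regions (7 and 9 members unadjusted). With the pileup at the summit scaled by depth and centred it called 0 up and 2 down, against 0.718% and 4.78% (8 and 9 members unadjusted). The direction of all 6 was the same in every alternative that could be fitted for them, though a replicate block cannot change it. The 6 were picked by this test, and at each the percentiles of the groups did not overlap. Leaving out 1 library could therefore hardly turn a shift either. In scaled pileup the log2 shifts of the TCF7L2 region (0.15, limma adjusted p = 0.716) and of GLIS3 intron 1 (−0.11, limma adjusted p = 0.788) were near 0.

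TCF7L2, the locus with the strongest common association with type 2 diabetes, spans chr10:112950247-113167678 on the plus strand. It held 32 regions, of which 9 were shared, 8 gained and 1 lost. Its promoter was already near the top of the DMSO lists (percentiles 93.7 and 93.5) and stood at 83.6 and 89.4 with I-BET151, from 68, 78, 64 and 150 reads (rank shift −0.84, SE 0.38, limma adjusted p = 0.188). The intron 5 element 124 kb after the start was the strongest shared region outside the promoter, with percentiles of 97.0, 87.6, 85.8 and 92.1. Of the 9 shared regions 7 had a rank shift below 0, none of them past the threshold, where 51.6% of all shared regions were below 0. By percentile, 3 of the 9 were lower and 1 was higher in both I-BET151 lists than in both DMSO lists. Over all shared regions 10.4% were lower and 40.9% higher.

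The leading gained TCF7L2 region lay in intron 3 (chr10:112959283-112959688), 9.20 kb after the start, with fold enrichments of 5.62 and 5.69 from 17 and 28 reads, and its window held HNF1, AP-1 and SOX cores. Only I-BET151 replicate 1 called it with equal numbers of peaks. Of the 8 gained regions, 5 were intronic. The lost region lay in intron 11 (chr10:113154218-113154664), with fold enrichments of 3.72 and 3.03 from 19 and 16 reads in the DMSO libraries. It was a weak peak in both lists, at percentiles of 42.2 and 11.9, and with equal numbers of peaks it was called in DMSO replicate 2 only.

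GLIS3 (chr9:3824127-4348392, minus strand, 524 kb) held elements along all of its length, with 64 of its 71 regions intronic and 14 of its 15 gained regions among them. Its promoter stood at percentiles of 18.3, 8.95, 60.1 and 44.1, from 27, 25, 50 and 76 reads. The groups did not overlap, and the rank shift of 0.60 (SE 0.40) did not pass limma's test (adjusted p = 0.368). The strongest shared element, in intron 2 and 63.9 kb after the start, stood at 98.4, 93.1, 98.1 and 98.7, so that it was near the top of every list. The leading gained region lay in the same intron (chr9:4277527-4278254), with fold enrichments of 8.38 and 10.0 from 27 and 40 reads, and it remained gained with equal numbers of peaks. Of the 12 shared GLIS3 regions, 3 were higher and 4 lower in both I-BET151 lists than in both DMSO lists. Over all shared regions 40.9% were higher and 10.4% lower.

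**Figure D4:**
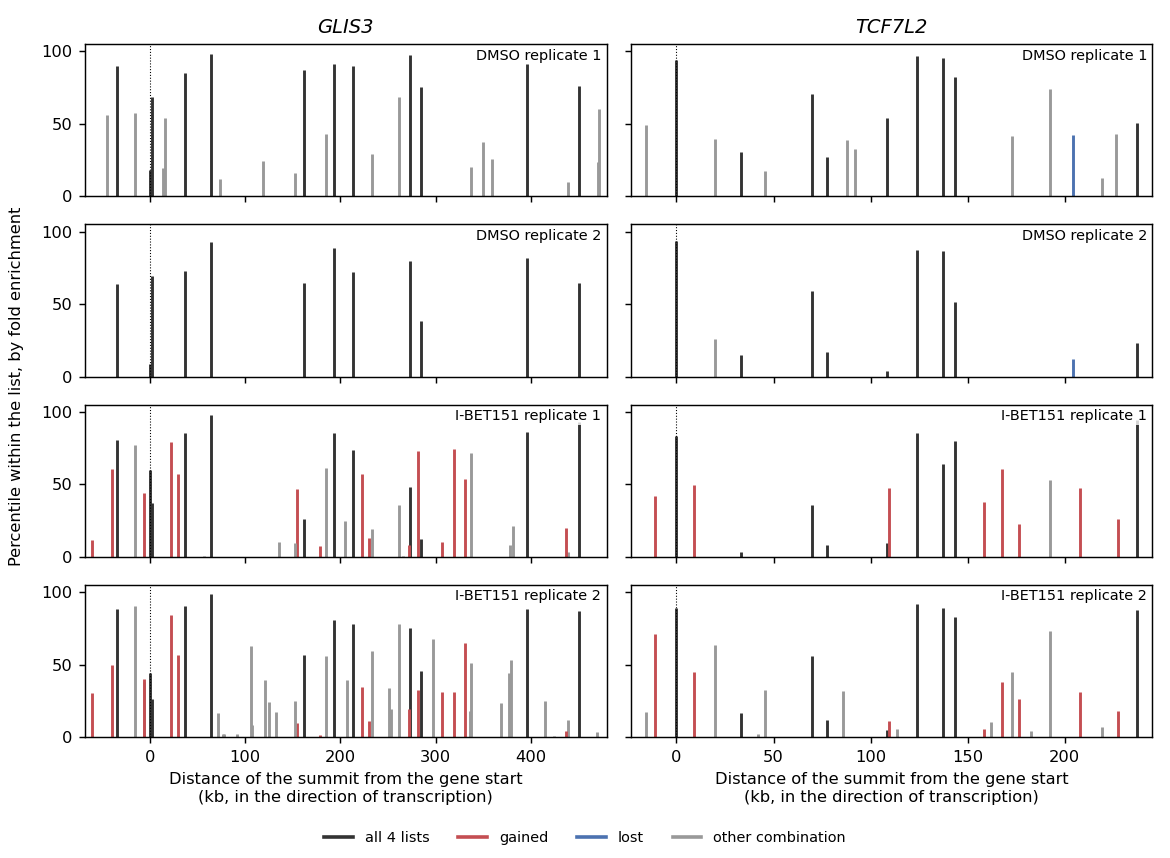
Regions along GLIS3 (left) and TCF7L2 (right), by distance of the summit from the gene start (x axis, kb, dotted line at the start) and percentile within the list (y axis), with 1 panel per library and 1 line per called region, coloured by the lists that called it. The gained regions stand between the shared ones, and DMSO replicate 2 shows few regions that were not called in all 4 lists.

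PROX1 (chr1:213983181-214041510, plus strand) directs early growth of the pancreas and liver. It held 13 regions, 5 of them shared and 4 gained, the densest set of the 10 genes at 13.2 regions per 100 kb of locus. The percentiles of its promoter were 8.24, 35.4, 60.4 and 57.6, from 25, 33, 51 and 86 reads. Both I-BET151 values lay above both DMSO values, but the rank shift of 0.55 (SE 0.44) did not pass the test (limma adjusted p = 0.461). Groups did not overlap at 3 of the 5 shared regions, all 3 being higher with I-BET151, as 40.9% of all shared regions were. The element beyond the 3′ end with ONECUT, FOX and GATA cores (chr1:214050270-214051328) was strong throughout, at percentiles of 96.2, 91.4, 88.6 and 94.5. All 4 gained regions were intronic, and the leading one, in intron 4 (chr1:214027558-214027977), had fold enrichments of 4.90 and 5.02 from 14 and 19 reads. No library called that region with equal numbers of peaks.

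At the other genes of β cell function the gained regions differed in their distance from the start. Those of SLC30A8 lay 17.3 kb or more from the canonical start, and those of KCNJ11 and WFS1 lay within 5.54 kb of theirs. SLC30A8 (chr8:116950273-117176714, plus strand) had 15 regions, of which 6 were gained, all in introns. Those with summits 115, 90.1, 64.8 and 51.8 kb before the canonical start lay in introns of another transcript, which begins further upstream. The leading gained region, in intron 4 of the canonical transcript (chr8:117159281-117159908), had fold enrichments of 7.99 and 9.18 from 22 and 29 reads. It remained gained with equal numbers of peaks. The strongest shared element of SLC30A8, in intron 7, stood at percentiles of 97.9, 84.5, 86.3 and 94.1 in all 4 libraries. Also within the locus, the promoter of the neighbour AARD stood at 75.7, 68.6, 92.6 and 90.7. KCNJ11 (chr11:17365172-17389331, minus strand) lies beside ABCC8, which encodes the other subunit of the channel, and had 8 regions, 3 of them gained. The leading gained region (chr11:17384006-17384374, 4.54 kb after the start) had fold enrichments of 4.68 and 4.47 from 15 and 23 reads, and with equal numbers of peaks it was called in no library. The 1 shared region at the locus, at the promoter of NCR3LG1, had percentiles of 74.7, 40.5, 34.5 and 40.3. WFS1 (chr4:6269849-6303265, plus strand) had 6 regions, and its 1 gained region, 5.54 kb before the start, had fold enrichments of 5.41 and 3.66 from 11 and 9 reads. No library called that region with equal numbers of peaks.

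The 2 RNA-modifying or RNA-binding genes and JAZF1 were long loci with most regions in introns. CDKAL1 (chr6:20534457-21232404, plus strand) had 36 regions over 698 kb, the fewest per length at 4.88 per 100 kb. Its promoter stood at percentiles of 87.1, 51.0, 77.8 and 88.5, and its strongest shared element, in intron 11, at 96.7, 89.9, 71.1 and 95.6, so neither separated the groups. All 4 gained CDKAL1 regions were intronic, led by 1 in intron 9 (chr6:20954520-20955528) with fold enrichments of 6.76 and 6.36 from 12 and 15 reads. Only I-BET151 replicate 1 called that leading region with equal numbers of peaks. IGF2BP2 (chr3:185643130-185825042, minus strand) had 26 regions and only 2 gained ones. The intron 10 region shown above (chr3:185660325-185660873) had fold enrichments of 9.05 and 8.67 from 18 and 27 reads, the highest lower-of-2 value among the 48 gained regions, and it remained gained with equal numbers of peaks. The IGF2BP2 promoter stood at 63.0, 12, 60.4 and 68.2, and a shared element in intron 2 at 94.0, 63.6, 97.9 and 97.8 (rank shift 0.97, SE 0.41, limma adjusted p = 0.158).

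JAZF1 (chr7:27830573-28180795, minus strand) had 22 regions, 20 of them intronic, and 1 shared region, in intron 2, at percentiles of 79.1, 45.8, 81.7 and 92.0. The intron 1 region with 3 AP-1 cores (chr7:28037357-28037711) had fold enrichments of 7.28 and 10.9 from 13 and 35 reads. It too remained gained with equal numbers of peaks. HHEX (chr10:92689955-92695647, plus strand) is short, and its 4 regions were the promoter and 3 regions downstream. One of these, 8.03 kb after the start, was called in DMSO replicate 1 and in both I-BET151 libraries, and 2 were called in DMSO replicate 1 only.

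To set the genes side by side, a locus score was taken as the mean percentile of a gene's regions within a list, with 0 for a region not called. It was higher on average with I-BET151 at all 10 genes, as it was at 15641 of 18847 protein-coding genes with a region (83.0%). At 7 of the 10 both I-BET151 scores lay above both DMSO scores, where 51.1% of all genes did so. The median difference was 13.6 over the 10 genes and 10.6 over all genes. The mean score of the 10 genes was 22.3 and 9.80 in the DMSO libraries and 27.8 and 34.2 in the I-BET151 libraries, or 16.0 ± 8.82 and 31.0 ± 4.56 (SD, n = 2). The difference of 14.9 was 5.48 between the replicate 1 libraries, 24.4 between the replicate 2 libraries (numbered by the sample titles, which the numbers inside the peak names do not match in every list) and 5.88 with equal numbers of peaks.

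**Figure D5:**
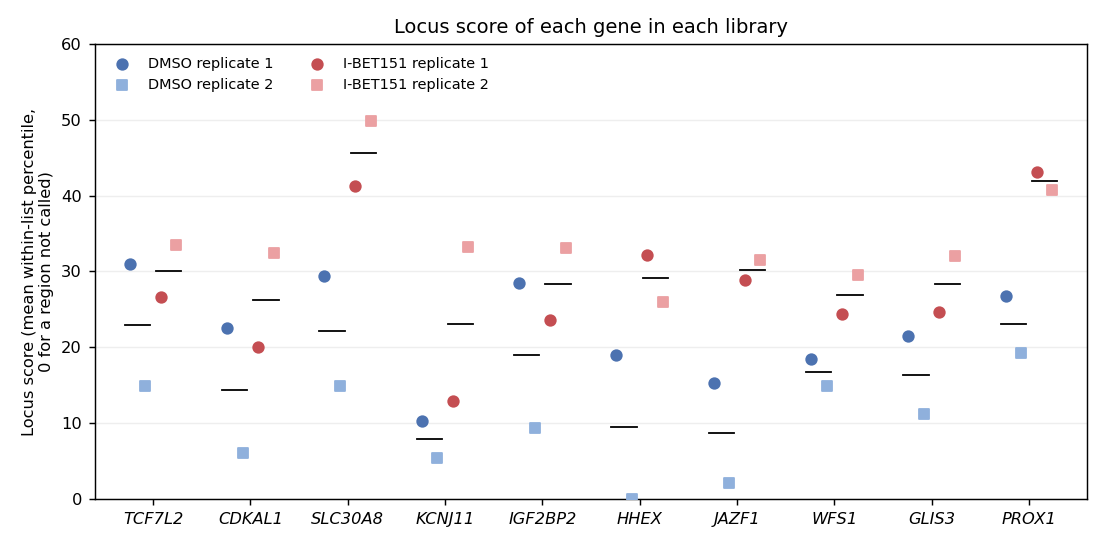
Locus score of the 10 genes (y axis, mean within-list percentile with 0 for a region not called), with 1 point per library and a black line at the mean of each pair of libraries. The I-BET151 points lie above both DMSO points at 7 genes and overlap them at TCF7L2, CDKAL1 and IGF2BP2.

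SLC30A8 had the largest difference of the 10, with scores of 29.4, 14.8, 41.3 and 49.9, followed by JAZF1 with 15.2, 2.08, 28.9 and 31.5. HHEX (19.0, 0, 32.2 and 26.0), PROX1 (26.8, 19.2, 43.1 and 40.7) and KCNJ11 (10.3, 5.36, 12.9 and 33.2) came next. The KCNJ11 score also takes in regions at its neighbours NCR3LG1 and ABCC8. At each neighbour 1 region was called in I-BET151 replicate 2 only (percentiles 55.5 and 77.9) and 1 in a single DMSO library only (2.35 and 7.78). Scores of GLIS3 (21.5, 11.2, 24.6 and 32.1) and WFS1 (18.4, 14.9, 24.4 and 29.5) were also apart, by less. Each of these 7 genes reached the lower bound of the two-sided exact permutation test (p = 0.333), so none could pass a threshold of 0.05. Scores overlapped at TCF7L2 (31.0, 14.8, 26.6 and 33.5), CDKAL1 (22.5, 6.10, 20 and 32.5) and IGF2BP2 (28.4, 9.39, 23.6 and 33.1), each with an exact permutation p of 0.667. At these 3 genes the score was lower with I-BET151 in the replicate 1 libraries and higher in the replicate 2 libraries, and without DMSO replicate 2 the differences at TCF7L2 and IGF2BP2 were −0.99 and −0.07.

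The other diabetes genes gave a frame for these values. At 43 further genes of type 2 diabetes association regions, 136 of 726 regions (18.7%) were gained and 14 (1.93%) lost, and the locus score was higher at 37 genes and lower at 6, with a median difference of 8.67. Of 129 shared regions there, 5 rose and 2 fell in limma's rank test. At 22 genes of monogenic or neonatal diabetes, 36 of 195 regions (18.5%) were gained and 4 (2.05%) lost. The score was higher at 21 genes and lower at 1, with a median difference of 14.2, and 2 of 44 shared regions rose and 0 fell. For both lists the background was 17.0% gained and 2.37% lost over all regions. In the rank test it was 3.41% up and 1.96% down over all shared regions. The highest differences were those of PSMD6 (49.5) and NOTCH2 (34.1) in the first list and of MAFA (37.1) and KLF11 (30.2) in the second. The lowest were those of C2CD4B (−36.4), MTNR1B (−33.9), CEL (−12.4) and GATA6 (2.53), of which C2CD4B and MTNR1B rest on 1 region each. By the distance between the 4 locus scores, the genes most like TCF7L2 among those with at least 10 regions were PPP2R3A (distance 1.38), PBX4 (1.93) and PALLD (2.13).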

How the data were processed

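ATAC-seq peak lists of 2 DMSO and 2 I-BET151 libraries were used. Per the labels and the methods, Bowtie2 (version 2.2.5) placed the reads on hg38, duplicate and mitochondrial reads were taken out, and MACS2 (version 2.1.2) was run by the authors on every library by itself, with no control library. Columns of a deposited list are a display score (not used), a fold enrichment, which is the ratio of summit pileup to background, a −log10 p-value and a −log10 q-value. The lists reach down to a −log10 q of 1.30 to 1.33, although the methods state a threshold of 5 on the −log10 p scale, which was run as an alternative.

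Unplaced contigs were dropped, and peaks sharing 1 bp were merged. No peak ran past the ends of the hg38 sequence used. A region was placed by its summit: in a promoter within 1 kb of a start, otherwise in an exon, an intron (gene body outside every exon) or between genes. The reads at a summit were solved from fold and p-value and fitted the p-value within 0.01 in 99.9 to 100% of peaks. Depth was taken from the background with the default MACS2 genome size of 2.7 G. Rank shifts used limma (version 3.58.1, R 4.3.3), with lmFit, eBayes and Benjamini-Hochberg adjustment over all shared regions, with no replicate block. Other steps used Python 3.11.15, pandas 2.3.3 and scipy 1.17.1. The scripts were tested on simulated data. Named at each gene were the promoter region, the strongest gained and lost regions, every region past the rank test, and the strongest shared region outside the promoter. The genes, lists and tests were chosen with earlier results of these data known. Alternatives were other thresholds, equal numbers of peaks, another overlap, other flanks, single replicate pairs, each library left out, the replicate block and other scales. The study's other experiments were not analysed here.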

Additional observations from a re-analysis of the deposited data

How the results depend on the processing

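The direction of the mean locus score difference and of the 6 named rank shifts was the same in every alternative that gave a value for them, and 46 summary values kept their size while 34 moved. The replicate block counts among these alternatives, although it could not change the score difference or the rank shifts. Leaving out 1 library could hardly turn their direction either, since the groups did not overlap in the mean score or at the 6 regions. A −log10 p of at least 10 gave 30 gained and 0 lost regions and 1 of 20 shared regions up in rank, against 6.36% of all shared regions. Equal numbers of peaks gave 6 gained and 5 lost (6.52% and 5.43%, against 9.19% and 5.85% of all regions). The mean score difference was then 5.88, and 7.25% of intronic regions were gained. With 50 kb flanks 2 were lost (0.735%, against 2.37% of all). Within the replicate 1 pair 68 regions were gained (29.2%, against 28.1% of all regions) and 47 lost (20.2%, against 26.8%), the score difference was 5.48, 30.2% of intronic regions were gained, and TCF7L2 (−4.45), CDKAL1 (−2.55) and IGF2BP2 (−4.80) reversed. Within the replicate 2 pair 129 were gained (55.4%, against 48.6% of all) and 4 lost (1.72%, against 3.84%). The score difference was 24.4, and 60.9% of intronic regions were gained. Leaving out each library in turn gave 50 to 103 gained (21.5 to 44.2%, against 18.0 to 39.3% of all regions). It gave 1 to 37 lost (0.429 to 15.9%, against 2.47 to 20.4% of all). The rank calls depended on which library was left out, as given above. Mean score differences were 8.71 to 21.2, and 22.3 to 48.6% of intronic regions were gained. The score difference ran from −0.99 to 15.2 at TCF7L2 and from −0.066 to 19.0 at IGF2BP2, both reversed without DMSO replicate 2. Ranks by −log10 p gave 0 up and 0 down, against 0.0312% and 0.105% of all shared regions. Centred log2 fold gave 7 down, against 4.33%, and scaled pileup 0 up, against 0.718%. The cause of these moves was not tested.

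No source pairs libraries with the same number and their deviations had a correlation of −0.14, so the replicate block was kept as an alternative. Both replicate 1 lists had a shortest peak of 200 bp, and whether a number marks a batch was not tested. With the replicate block limma called 3 regions up and 3 down, against 3.84% and 2.54% of all shared regions. A block does not enter the locus score. With each number once in each group it cannot change a rank shift either, only its p-value. The crossed block, added after seeing the data, gave 5 down, against 6.11% of all shared regions. Over all alternatives the adjusted p of the 6 rank calls ranged from 0.000622 to 0.788. Summits of 6 to 175 reads carry a counting error that 2 libraries do not show.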
